A study of Mus musculus with 44 samples.

Results

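Mouse skeletal stem cells and their progeny are isolated by fluorescence-activated cell sorting on a small set of surface antigens. The 7 genes described here encode those antigens: Itgav (CD51, also AlphaV), Thy1, Enpep (6C3), Cd200, Eng (CD105), Ptprc (CD45) and Tek (Tie2). They were chosen by symbol as the gated antigens that 1 gene encodes, all 7 were found, and they are 7 of the 46831 named entries used. Ter119, the erythroid antigen of the same sort, is not the product of a single gene and is represented below by erythroid genes.

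Itgav is the alpha subunit of integrins that bind RGD-containing matrix proteins, and it pairs with several beta subunits. Thy1 is a small GPI-anchored glycoprotein of fibroblasts, stromal cells and mouse T cells. Enpep is aminopeptidase A, a membrane enzyme that cleaves angiotensin II. Cd200 is a ligand whose receptors lie mainly on myeloid cells, Eng is a co-receptor for ligands of the TGF-beta family, Ptprc is the receptor tyrosine phosphatase found on nucleated blood cells, and Tek is the angiopoietin receptor of endothelial cells. N6-methyladenosine (m6A) is laid on mRNA mainly by a complex whose catalytic subunit is METTL3, often within a GGACT-like sequence and often near the stop codon.

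Cells were sorted from long bones of mice labelled C57Bl6 (C57BL/6J background in the study's methods) at postnatal day 3. The study collected samples of that age from several litters regardless of sex. How many mice made up a library is not given in the sources used here. The 22 groups of 2 libraries are input RNA and m6A immunoprecipitate (IP) of 8 WT populations and of SSC, pre-BCSP and BCSP of Mettl3cko mice. In the study Mettl3cko mice are Mettl3 fl/fl;Col2a1-Cre animals and their WT controls are Mettl3 fl/fl animals. Whether mice of the other WT populations carried the floxed allele is not given in the sources used here. The deletion follows Col2a1, a collagen gene of cartilage cells and their progenitors. No treatment was given, and the study describes its 2 replicates as independent experiments. Mettl3cko is named in the sample titles alone, since the genotype entry of every one of the 44 libraries is wild type.

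Every population was sorted CD45-, Ter119-, Tie2- and CD51+. Among Thy1-, 6C3- cells, SSC were CD105- CD200+, pre-BCSP were CD105- CD200-, and BCSP were CD105+ with CD200 not gated. Among Thy1+, 6C3- cells, PCP were CD105+ CD200+, THY were CD105+ CD200- and BLSP were CD105-. Among Thy1-, 6C3+ cells, 6C3 were CD105+ and HEC were CD105-. The sort read protein on the cell surface and the libraries read mRNA. A member's mRNA by its own gate therefore compares 2 products of 1 gene and does not show a difference in some other gene.

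Input libraries held 19795666 to 44046651 counts in WT and 30050178 to 35325482 in Mettl3cko, and IP libraries held 16480027 to 35856651 and 22056571 to 33126857. The Mettl3cko IP libraries stood apart: 12685 to 14415 genes had a count there, against 16250 to 27025 in WT IP, and their replicates correlated at 0.845 to 0.883 in log2 CPM against 0.922 to 0.949 in WT IP. Mitochondrial genes held 1.56% to 2.92% of WT IP counts in SSC, pre-BCSP and BCSP and 4.53% to 9.10% in the other populations. They held 0.287% to 1.41% of WT input counts. The part of this in the IP to input ratios and in IP differences between populations was not tested. Mettl3 counts over the whole gene were 15.8 and 15.9 CPM (each library's counts scaled to a common total by TMM) in WT SSC and 17.0 and 18.8 in Mettl3cko SSC, and its mRNA passed the test in none of the 3 populations (log2 fold changes 0.19, 0.69 and -0.15, adjusted p = 0.817, 0.618 and 0.901). Counts over a whole gene do not show which exons were read. The study reported the deletion by qRT-PCR and western blot, and lower m6A in SSC, pre-BCSP and BCSP of these mice. Chondrocyte genes summed to 96385 to 114370 CPM in SSC and to 7661 to 7905 CPM in THY, and osteoblast genes to 8032 to 11538 CPM in SSC and 62781 to 84870 CPM in THY, so skeletal markers were abundant in every population.

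The members lie on 6 chromosomes (GRCm38, GENCODE vM21): Itgav at chr2:83724397-83806916, Thy1 at chr9:44043384-44048579, Enpep at chr3:129269175-129332720, Cd200 at chr16:45382135-45409053, Eng at chr2:32646595-32682669, Ptprc at chr1:138062861-138175708 and Tek at chr4:94739289-94874976. All are protein-coding. Itgav shares 634 bases with Gm13684 and Eng shares 61 bases with Fpgs, both on the opposite strand, and without strand in the libraries reads there cannot be told apart.

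GGACT, 1 spelling of the context in which METTL3 is known to methylate adenosine, was searched on the sense strand of 1 transcript per gene, with no overlap between matches possible. Itgav held 14 copies, 8 of them in its 3′ UTR, or 1.98 per kb, a density reached by 12.6% of the 21862 transcripts searched. Tek held 9 (1.93 per kb, reached by 13.5%), Thy1 3 (1.73, 18.6%), Enpep 6, all coding (1.44, 28.2%), Cd200 3 (1.28, 35.3%), Eng 4 (1.17, 40.6%) and Ptprc 2 (0.43, 80.8%). The median transcript held 1.01 per kb, and 87.0% of transcripts held at least 1. A match is a description of the sequence and not a methylated site. The copy nearest the stop codon of each member is shown because m6A is often found there, with GGACT in capitals inside 25 bases of the sense strand.
Itgav, 3′ UTR, plus strand, chr2:83803416-83803440: tgaaatcccaGGACTgtattgctga
Thy1, coding, plus strand, chr9:44047423-44047447: tccaagccctGGACTtcatttctct
Enpep, coding, minus strand, chr3:129276645-129276669: aactcaactgGGACTatctggtcag
Cd200, 3′ UTR, minus strand, chr16:45383227-45383251: gtctgttgtaGGACTtgattttttt
Eng, 3′ UTR, plus strand, chr2:32681943-32681967: ctcctcacctGGACTggcacaactt
Ptprc, coding, minus strand, chr1:138101066-138101090: caaagaaatgGGACTgctgagaagt
Tek, coding, plus strand, chr4:94859047-94859071: cccgggggatGGACTacttgagcca
Measured from the first base of the stop codon, the Thy1 copy lay at base -16 and the Itgav copy at base 93, both near it, while the nearest Ptprc copy lay at base -2501.

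The 7 mRNAs differed widely in level and in how far they varied over the 16 WT input libraries. Per kb of exon, the mean level was 27.6 CPM for Cd200, 18.1 for Eng, 7.04 for Itgav, 3.24 for Enpep, 3.17 for Thy1, 0.450 for Tek and 0.0137 for Ptprc. The 2 antigens that were gated out in every population, CD45 and Tie2, were thus the lowest, and CD51, gated in everywhere, lay between them and the 2 highest. In edgeR's quasi-likelihood test across the 8 populations all 7 members varied, with Benjamini-Hochberg adjusted p from 3.08e-09 (Thy1) to 0.0118 (Ptprc), where 40.1% of the 20060 genes tested did. The fit pools the spread over the 8 populations, each with 2 libraries, so that its p-values measure the spread between these libraries.

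**Figure D1:**
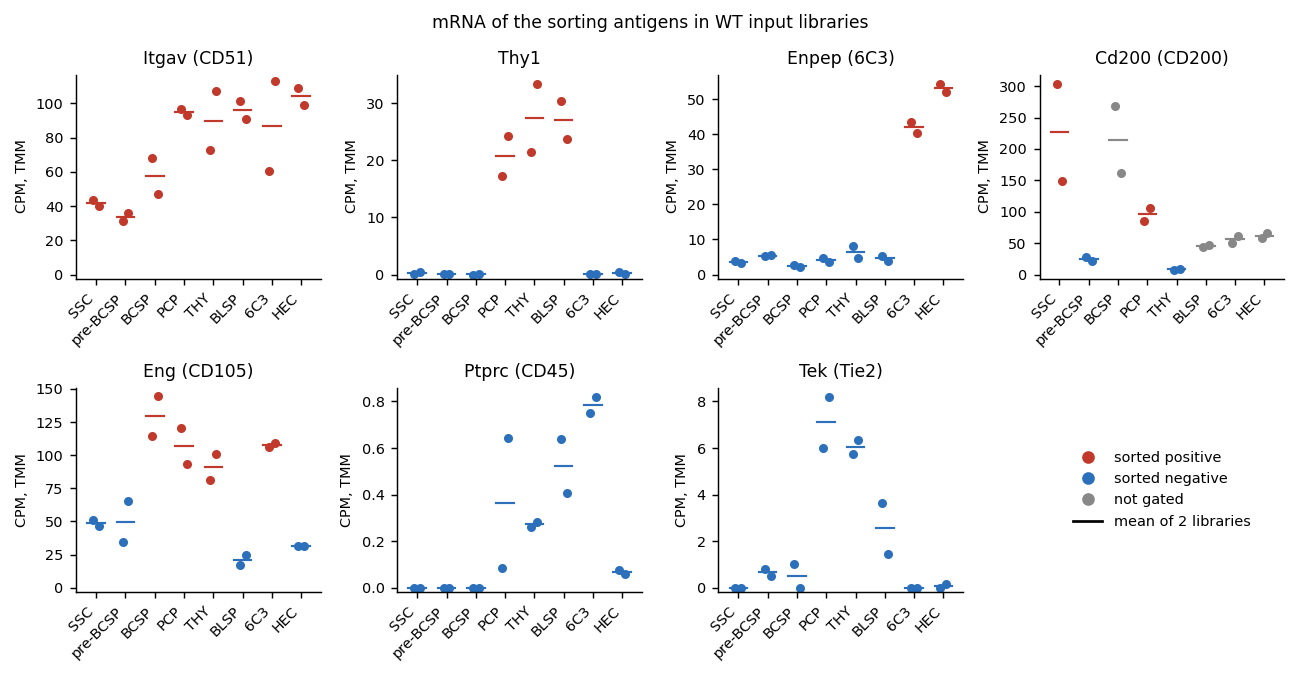
TMM-scaled CPM (linear axes, 1 per gene) of each member in the WT input libraries, 2 points per population with a bar at their mean, coloured by how the population was sorted for that antigen. Thy1 reached at least 17.3 CPM in the 6 Thy1+ libraries and at most 0.423 in the others, Ptprc stayed at or below 0.817 CPM throughout, and Tek reached 8.17 CPM in PCP although every population was sorted Tie2-.

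Thy1 mRNA was counted almost entirely in the Thy1+ populations. It was counted 824 and 1169 times in PCP (17.3 and 24.3 CPM), 490 and 1535 times in THY (21.5 and 33.3 CPM) and 996 and 1109 times in BLSP (30.4 and 23.6 CPM). The 10 Thy1- libraries held 0 to 11 counts each (at most 0.423 CPM). The groups did not overlap: the lowest Thy1+ library was 40.9 times the highest Thy1- library. Summed over libraries, 6123 counts in the Thy1+ set and 42 in the Thy1- set gave a ratio per library total of 222 (exact 95% interval 164 to 308, counting error only). The fitted log2 fold change was 8.01 (SE 0.29, edgeR adjusted p = 3.65e-11). Thy1 was also higher where Thy1 was the gate that divided cells of otherwise like CD105 and 6C3 status, by 10.30 (SE 0.74) in PCP and THY over BCSP and by 7.45 (SE 0.44) in BLSP over SSC and pre-BCSP. Both comparisons also set populations downstream in the study's hierarchy against SSC, pre-BCSP or BCSP, so gate and stage cannot be told apart there. Within the Thy1+ set THY, BLSP and PCP overlapped.

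Across the Thy1 gate 6 of the 7 members passed, where 41.4% of genes did. Besides Thy1, Itgav rose by 0.73 on the log2 scale (SE 0.14, adjusted p = 0.000482), Tek and Ptprc rose, and Enpep (-0.96, SE 0.15) and Cd200 (-1.27, SE 0.16) fell. Eng did not pass (-0.05, SE 0.14). In PCP and THY over BCSP the same 6 members passed, where 35.2% of genes did, but there Enpep was higher (1.15, SE 0.27) and Itgav (0.77) no longer passed without BCSP replicate 2 (0.54) or THY replicate 2 (0.64). In BLSP over SSC and pre-BCSP 5 members passed (Itgav, Thy1, Eng, Ptprc and Tek), where 32.8% of genes did, and Eng (-1.14) no longer passed without BLSP replicate 1 (-0.91). With library size alone as the scale the median of all genes by the Thy1 gate moved from 0.12 to 0.32, and the split of higher to lower calls from 4975 and 3335 to 6650 and 2097. The gate comparisons share libraries and are not independent of each other. Where the negative side was BCSP, or SSC and pre-BCSP, a member's shift cannot be assigned to the gate or to stage.

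Enpep mRNA marked the 6C3+ populations at a moderate level above a low floor. It was 43.6 and 40.5 CPM in 6C3 and 54.5 and 52.0 CPM in HEC. In the 12 6C3- libraries it ran from 2.17 CPM (BCSP) over a median of 4.27 to 8.07 CPM (THY), with 66 to 229 counts each. No library overlapped, the lowest 6C3+ library was 5.02 times the highest 6C3- library, and the log2 fold change was 3.49 (SE 0.15, edgeR adjusted p = 1.01e-09). The difference was 4.13 (SE 0.32) for 6C3 over BCSP, both CD105+ and Thy1-, and 3.66 (SE 0.24) for HEC over SSC and pre-BCSP, all CD105- and Thy1-. In both, the 6C3+ side is downstream and the 6C3- side is not, so gate and stage cannot be told apart for any member. HEC libraries were above 6C3 libraries without overlap, but HEC and 6C3 differed by only 0.35 on the log2 scale (SE 0.28) and did not pass.

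By the 6C3 gate 4 members passed (Itgav, Thy1, Enpep and Ptprc), where 22.6% of genes did. Itgav was higher by 0.59 (SE 0.15, adjusted p = 0.00987), but without 6C3 replicate 2 its difference was 0.33 and without HEC replicate 1 it was 0.56, and neither passed. Leaving out 1 library at a time, 2 to 4 members passed. In 6C3 over BCSP 4 members passed (Enpep, Cd200, Ptprc and Tek, where 25.5% of genes did), 2 of them without BCSP replicate 1, and in HEC over SSC and pre-BCSP 2 passed (Itgav and Enpep, where 27.0% of genes did).

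Cd200 mRNA followed the CD200 gate within each pair it divided, at levels that differed between the pairs. It was 304 and 149 CPM in SSC against 27.1 and 21.6 in pre-BCSP, and 84.7 and 107 CPM in PCP against 7.54 and 8.86 in THY. The CD200- pre-BCSP thus held more Cd200 mRNA than the CD200- THY, without overlap. The lowest CD200+ library was 3.12 times the highest CD200- library, and the log2 fold change by the gate was 3.36 (SE 0.23, edgeR adjusted p = 1.42e-06). The steps were of like size in the 2 pairs, 3.22 (SE 0.32) for SSC over pre-BCSP and 3.50 (SE 0.33) for PCP over THY. In each of these 3 comparisons Cd200 was the 1 member that passed, where 1.98%, 0.748% and 1.66% of genes did.

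The 4 populations that CD200 did not divide fell on both sides. BCSP libraries held 269 and 161 CPM of Cd200 and overlapped those of SSC, while BLSP (43.1 and 47.3), 6C3 (50.6 and 61.5) and HEC (57.8 and 65.7) lay between the CD200- and the CD200+ populations. Between SSC, pre-BCSP and BCSP together, called upstream here, and the 5 downstream populations, Cd200 was the 1 member that was higher upstream (1.26, SE 0.15, adjusted p = 3.36e-06). That mean rests on BCSP and on SSC, which was sorted CD200+. Cd200 in pre-BCSP, sorted CD200- (27.1 and 21.6 CPM), lay below every downstream population except THY. Itgav (-1.21, SE 0.15), Enpep (-1.83, SE 0.16), Thy1 and Ptprc were lower upstream, which made 5 members where 51.4% of genes passed.

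Eng mRNA followed the CD105 gate with the smallest step of the 4 antigens that divide populations. The CD105+ libraries held 114 and 144 CPM in BCSP, 120 and 93.6 in PCP, 81.5 and 101 in THY and 106 and 109 in 6C3. The CD105- libraries held 51.3 and 46.3 CPM in SSC, 34.2 and 65.7 in pre-BCSP, 17.0 and 24.7 in BLSP and 31.2 and 31.3 in HEC. No library overlapped, yet the lowest CD105+ library was only 1.24 times the highest CD105- library. The log2 fold change was 1.63 (SE 0.14, edgeR adjusted p = 4.69e-06), and Eng was the 1 member that passed, where 10.7% of genes did. Itgav stood just past the threshold (0.43, SE 0.14, adjusted p = 0.0533).

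The Eng step was 2.25 (SE 0.26, adjusted p = 0.000391) in PCP and THY over BLSP, where Eng was the 1 member to pass among 0.553% of genes. It was 1.41 (SE 0.23, adjusted p = 0.0109) in BCSP over SSC and pre-BCSP, where Cd200 rose too (1.56, SE 0.24) and 2 members passed among 1.05% of genes. Cd200 no longer passed there without BCSP replicate 1 (1.14). For 6C3 over HEC, which differ in the CD105 gate alone, Eng was higher by 1.78 (SE 0.28) at an adjusted p of 0.0516. No member passed, and 2 genes or 0.00997% did. With the replicate number as a block the adjusted p was 0.0281.

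**Figure D2:**
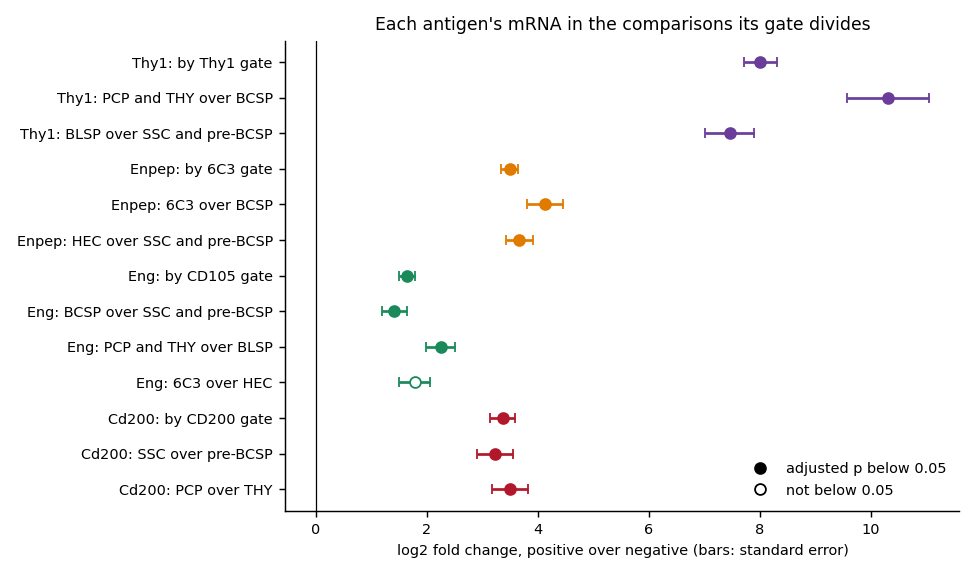
Fitted log2 fold change of each dividing antigen's mRNA, sorted positive over sorted negative, in the overall gate and in the subsets that differ in that gate (points; bars, standard error; WT input libraries). Thy1 steps were 7.45 to 10.30, Enpep 3.49 to 4.13, Cd200 3.22 to 3.50 and Eng 1.41 to 2.25, and 6C3 over HEC was the 1 point not past the threshold. The Thy1 and Enpep subsets also set downstream populations against SSC, pre-BCSP or BCSP.

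Itgav mRNA varied although every population was sorted CD51+. It was 43.6 and 40.3 CPM in SSC, 31.4 and 36.0 in pre-BCSP and 68.1 and 46.8 in BCSP. Downstream it was 96.7 and 93.4 CPM in PCP, 72.6 and 107 in THY, 101 and 90.9 in BLSP, 60.7 and 113 in 6C3 and 109 and 99.3 in HEC. The 5 downstream populations overlapped in turn, and 6C3 also overlapped BCSP, whereas SSC and pre-BCSP lay below all others. The highest population mean, in HEC, was 3.09 times the lowest, in pre-BCSP.

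Of the 5 integrin beta genes that pair with Itgav, 4 rose by the Thy1 gate and none fell (median 1.57, against 0.12 over all genes, of which 24.8% rose and 16.6% fell). All 5 were lower in SSC, pre-BCSP and BCSP than downstream (median -2.13, against -0.11 over all genes, of which 28.3% were lower). Itgb1, the common beta subunit, was lower upstream by 1.16 on the log2 scale and ran from 246 CPM in BCSP to 853 in THY. Itgb3, of the vitronectin receptor, was 2.40 to 3.78 CPM in SSC and 61.6 to 70.1 CPM in THY. Itgb8 reached 15.9 to 19.4 CPM in BLSP and stayed at or below 3.64 CPM elsewhere.

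Ptprc and Tek mRNA were low throughout, and differed in where they were counted. No Ptprc read was counted in the 6 libraries of SSC, pre-BCSP and BCSP, whose counts together were 0. Ptprc was counted 4 and 31 times in PCP, 6 and 13 in THY, 21 and 19 in BLSP, 25 and 30 in 6C3 and 2 and 2 in HEC. Its 153 downstream counts against 0 upstream gave a ratio per library total of 27.7, with 3 counts over the 6 upstream libraries together taken as the limit that a count of 0 allows. With that limit treated as a count, the exact 95% interval of the ratio was 9.30 to 136. The level never passed 0.817 CPM.

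The sum of the other leukocyte genes did not run with Ptprc over the populations, and single genes differed. Without Ptprc, the 11 other leukocyte genes summed to 16.8 to 57.1 CPM in pre-BCSP and 21.7 to 27.5 CPM in SSC, where Ptprc was at 0, and to 4.69 to 14.6 CPM in 6C3, where Ptprc was highest. In PCP and THY, where Ptprc was counted, the sums were 16.7 to 29.1 and 16.5 to 17.7 CPM. Like Ptprc, Tyrobp was at 0 in SSC, and Cd52 was at 0 in pre-BCSP and BCSP. Lcp1, an actin-bundling protein of leukocytes, was higher upstream by 2.36 on the log2 scale (SE 0.26), and so was Cd79a of the B cell receptor, by 3.05 (SE 0.33). Of the 11 genes of the whole list, Ptprc included, that were tested by the Thy1 gate, 4 rose and 2 fell, where 24.8% and 16.6% of all genes did. Ptprc was among those that rose. The part of leukocytes in the Ptprc counts was not tested.

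Tek was counted 287 and 393 times in PCP (6.02 and 8.17 CPM), 131 and 292 times in THY and 120 and 69 times in BLSP. It was counted 24 and 16 times in pre-BCSP, 31 and 0 times in BCSP, 0 and 5 times in HEC and not at all in SSC and 6C3. The Thy1+ set held 1292 counts and the Thy1- set 76, a ratio per library total of 25.8 (exact 95% interval 20.5 to 33.0, counting error only), and the lowest Thy1+ library (69 counts) was above the highest Thy1- library (31). Thy1 and Tek had the highest correlation between members over the 16 libraries (r = 0.80 in log2 CPM), given as a description of libraries that share their populations.

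Endothelial genes were highest in PCP but did not follow Tek elsewhere. Without Tek, 10 endothelial genes summed to 211 to 239 CPM in PCP, 32.8 to 47.1 in THY, 30.1 to 37.7 in BLSP, 60.0 to 76.7 in 6C3 and 84.3 to 86.4 in HEC. Tek in THY (5.74 and 6.34 CPM) overlapped Tek in PCP, whereas the other endothelial genes did not overlap between them, and Tek was at 0 in 6C3, where they were higher than in THY. Tie1, the co-receptor of Tek, was 19.6 to 33.3 CPM in PCP and 0.391 to 0.570 CPM in THY. By the Thy1 gate 8 of the 11 endothelial genes, Tek included, rose and none fell (median 2.003, against 0.12 over all genes, of which 24.8% rose). Among those that rose were Tek itself, Pecam1 (1.36, SE 0.37) and Esam (2.44, SE 0.22). The sums without Tek were nevertheless lower in THY and BLSP than in the Thy1- populations 6C3 and HEC. In bulk RNA, few cells with much of a transcript and many cells with little of it cannot be told apart, and the part of endothelial cells in the Tek counts was not tested.

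**Figure D3:**
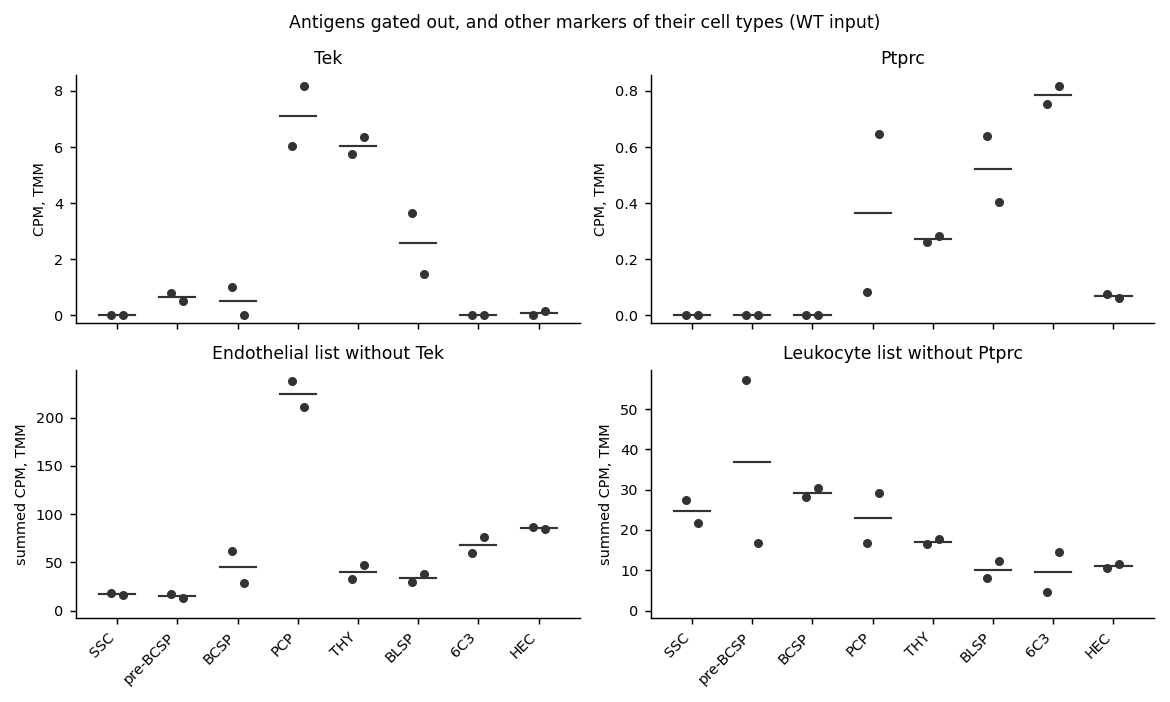
Tek and Ptprc (top, TMM-scaled CPM) and the summed CPM of the other genes of the endothelial and leukocyte lists (bottom) in the WT input libraries, 2 points per population with a bar at their mean. Tek was at 5.74 CPM or more in PCP and THY while the other endothelial genes exceeded 200 CPM in PCP alone. Ptprc was at 0 in SSC, pre-BCSP and BCSP, where the leukocyte sum was 16.8 to 57.1 CPM. It was counted in PCP (sum 16.7 to 29.1 CPM) and THY (16.5 to 17.7 CPM), which overlapped that range.

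The angiopoietins, the ligands of Tek, had their highest levels in PCP. Angpt2 was 20.6 to 36.7 CPM there against at most 11.3 elsewhere, Angpt4 was 12.4 to 41.9 against at most 5.80, and Angpt1 was 11.5 to 18.6 CPM in PCP and 5.69 to 15.2 in SSC. All 4 genes of the Tek list (the 3 angiopoietins and Tie1) rose by the Thy1 gate, where 24.8% of all genes did. Globin and other erythroid genes, the stand-in for Ter119, summed to 0.814 to 5.90 CPM in SSC, pre-BCSP and BCSP and to 18.3 to 144 CPM downstream, and 8 of the 9 were lower upstream, where 28.3% of all genes were. The Thy1 gate, the 6C3 gate and the upstream against downstream comparison thus moved with erythroid counts, whose part in them was not tested.

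The other pathway genes did not share 1 pattern. Of the 8 tested genes of the CD105 receptor complex, 1 rose and none fell by the CD105 gate, where 6.62% of all genes rose (median 0.03, against 0.00 over all genes), and 5 rose by the Thy1 gate, where 24.8% did. Tgfbr2 was 59.8 to 65.2 CPM in BCSP, where Eng was highest, and 159 to 167 CPM in THY. Of the 9 genes around aminopeptidase A, 2 rose by the 6C3 gate, where 13.7% of all genes did, among them angiotensinogen (Agt, 0.71, SE 0.20), whereas Anpep, a related aminopeptidase, was 28.7 to 60.3 CPM in the Thy1+ populations, 1.39 to 6.16 CPM in SSC, pre-BCSP and BCSP, and rose by the Thy1 gate by 3.17 (SE 0.15). The Cd200 receptors stayed at or below 1.89 CPM, and none of the 3 tested passed by the CD200 gate. Of 12 other antigens used for skeletal or stromal cells, 9 rose and 2 fell by the Thy1 gate, where 24.8% and 16.6% of all genes did. Cd44 (1.61, SE 0.13) and Pdpn (0.94, SE 0.10) rose, and Nt5e (-1.17, SE 0.13) and Cd9 (-0.94, SE 0.10) fell.

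For each member the 3 most alike genes were taken by Pearson correlation of log2 CPM over the 16 WT input libraries, among 10462 genes. They were Mfap4 (r = 0.963), Svil and Crabp1 for Thy1, BC022687 (0.975), Tob1 and Esyt3 for Enpep, Mef2c (0.957), Lmcd1 and Ibsp for Cd200, and Taf10 (0.976), Bahcc1 and Cd2ap for Itgav. Tek was followed by Sytl2 (0.915), Scn7a and Dusp10, and Ptprc by Pigq (0.912), Pold1 and Aplp1. Eng had no close match, with Mgmt at 0.773, Edem2 and Ak1. These values describe 8 populations of 2 libraries, and depth and population are common to the points.

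The IP to input ratio is read here as m6A enrichment of a gene's RNA, though in edgeR a dependence on Mettl3 was shown for no member (below). The Thy1+ populations, where Thy1 was abundant, have no Mettl3cko libraries. An enriched gene is one with a log2 fold change above 1 at an unadjusted p below 0.05, the rule the study used. Itgav was above its input in all 16 WT pairs of IP and input libraries with the same replicate number, by 0.51 to 1.95 on the log2 scale (median 1.13). Its IP levels were 75.1 and 96.6 CPM in SSC, 63.9 and 78.6 in pre-BCSP, 96.8 and 103 in BCSP and 200 to 241 CPM in the 5 downstream populations. The fitted log2 fold changes were 1.13 (SE 0.23) in SSC, 1.16 (SE 0.21) in pre-BCSP and 0.83 (SE 0.28) in BCSP. Among CD105- downstream cells they were 1.19 (SE 0.14) in BLSP and 1.15 (SE 0.14) in HEC, and among CD105+ ones 1.23 (SE 0.22) in PCP, 1.25 (SE 0.22) in THY and 1.46 (SE 0.32) in 6C3. Itgav was called enriched in 7 of 8, the exception being BCSP.

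These calls lay close to the threshold. Itgav was no longer enriched in SSC without IP replicate 2 (0.91), in pre-BCSP without IP replicate 2 (0.98) or in BLSP without input replicate 2 (0.998), and it was enriched in BCSP without input replicate 1 (1.11). The test of whether the ratio differed over the 8 populations found no member at an adjusted p below 0.05, where 0.485% of genes passed. Itgav had an unadjusted p of 0.948 there, and Enpep, at 0.0386, was the 1 member below 0.05. With no filter on low counts 3 members passed, Thy1 (adjusted p = 0.0245), Enpep (0.00117) and Tek. Thy1 also passed without SSC IP replicate 1 (adjusted p = 0.0256), and Enpep without BLSP IP replicate 1 (0.0377) or 2 (0.0474). DESeq2 called 1000 genes in that comparison against 123 in edgeR.

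Thy1 was enriched in the 3 Thy1+ populations. Its IP libraries held 59.9 and 65.2 CPM in PCP, 88.0 and 123 in THY and 76.9 and 83.8 in BLSP, against inputs of 17.3 to 33.3 CPM. The fitted log2 fold changes were 1.54 (SE 0.29), 1.97 (SE 0.28) and 1.51 (SE 0.19), at edgeR adjusted p = 0.024, 0.0035 and 0.00319. One fit over all 44 libraries gave 1.47, 1.86 and 1.43 and none of the 3 passed. In the Thy1- populations the IP held 0 to 86 counts a library, so a ratio there rests on few reads, including a call in 6C3 (86 and 12 IP counts) that was lost without IP replicate 1.

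Eng was lower in IP than in input. It was below its input in all 16 WT pairs, by 0.07 to 1.42 on the log2 scale, and passed an adjusted p below 0.05 as lower in THY (-0.77, SE 0.19, adjusted p = 0.0266), 6C3 (-0.99, SE 0.23, 0.0188) and HEC (-0.75, SE 0.20, 0.0228). With 1 library left out each of these calls was lost in 2 of 4 fits, with adjusted p up to 0.236 in THY, 0.148 in 6C3 and 0.158 in HEC, and none passed in 1 fit over all 44 libraries. Lower in IP at that threshold were 5.27% of genes in SSC, 10.9% in pre-BCSP, 2.31% in BCSP, 7.48% in PCP and 14.9% in THY, and 16% in BLSP, 15.3% in 6C3 and 17.8% in HEC. Enpep was below its input in 14 of 16 pairs and fell in 6C3 (-1.53, SE 0.33, adjusted p = 0.0141) and HEC (-1.07, SE 0.25, 0.013), the 2 6C3+ populations. In 6C3 the call was lost without IP replicate 2 (adjusted p = 0.0639), in HEC it held without any 1 library, and in 1 fit over all 44 libraries neither passed. Its IP held 429 and 165 counts in 6C3 and 672 and 483 in HEC. Cd200 lay on both sides of 0, above in 8 pairs and below in 8 (-0.52 to 0.76), and was called in no population. Ptprc met the rule in THY (36 and 88 IP counts) and BLSP (145 and 40), and Tek in none. The Ptprc calls were lost in THY without either input library and in BLSP without input replicate 2 or IP replicate 1.

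The members enriched per WT population were 1 in SSC (where 10.4% of genes were), 1 in pre-BCSP (12.0%) and 0 in BCSP (6.67%). They were 3 in THY (12.4%), 3 in BLSP (12.4%) and 2 in PCP (10.6%), and 1 in HEC (13.5%) and 2 in 6C3 (14.5%). Itgav, with the most GGACT copies and 8 of them in the 3′ UTR, was above the input together with Thy1, while Tek, of like GGACT density, was called nowhere and Enpep, with 6 coding copies, was below the input where it was abundant. Among partner genes, Bmpr2 of the CD105 complex and the kinase Fyn, a CD45 substrate, were enriched in 8 of 8 WT populations, Lnpep and Pdpn in 7 and Ly6a in 6, and Tgfb3 and Nt5e fell in 7 of 8. Bmpr2 and Ly6a are outside the naming rule and were singled out after their values were seen. The enriched genes named here were the highest of their partner lists, and most other tested genes of those lists were enriched in no population. The share of all genes called in as many populations is not given here. Itgb1 was below its input in all 8 populations (-0.73 to -0.26), opposite in sign to its partner Itgav.

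**Figure D4:**
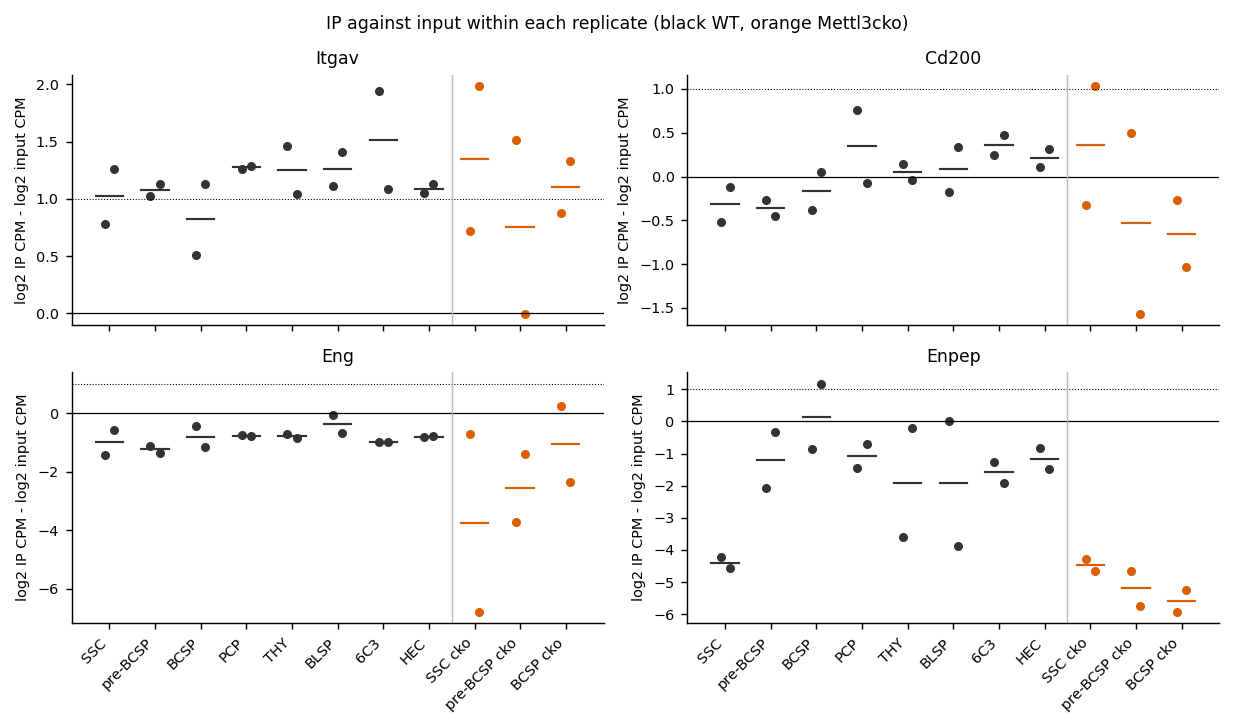
Log2 ratio of IP to input within each replicate number (points; bars, mean of 2; prior count added) for 4 members in the 8 WT populations (black) and the 3 Mettl3cko populations (orange), with solid lines at 0 and dotted lines at 1. Itgav lay above 0 and Eng below 0 in all 16 WT pairs, Cd200 lay on both sides, and Enpep ratios under about -3 come from IP libraries with 12 counts or fewer.

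In Mettl3cko mice no member's mRNA passed the test in SSC, pre-BCSP or BCSP, where 0.0%, 0.0% and 0.0% of genes did in edgeR's fits of 4 libraries. At an unadjusted p below 0.05 those fits held 2363, 1341 and 2123 genes, Eng in SSC among them, and DESeq2 called 661, 158 and 548 genes at an adjusted p below 0.05, no member included. Itgav was 42.3 and 42.1 CPM in Mettl3cko SSC against 43.6 and 40.3 in WT, a log2 difference of 0.02 (95% interval -0.45 to 0.48). It was 19.8 and 23.1 CPM against 31.4 and 36.0 in pre-BCSP (-0.63, -1.28 to 0.01) and 40.8 and 41.8 against 68.1 and 46.8 in BCSP (-0.47, -1.08 to 0.13), with no overlap of libraries in either. The share of all genes whose libraries did not overlap between genotypes is not given here, so such separation is a description alone.

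Enpep was 1.26 and 1.62 CPM in Mettl3cko SSC against 3.97 and 3.25 in WT (-1.31, 95% interval -2.78 to 0.16) and did not overlap there or in pre-BCSP (1.63 and 3.55 against 5.32 and 5.52 CPM). Cd200 overlapped between genotypes in every population, at 196 and 252 CPM against 304 and 149 in SSC (-0.00, -0.76 to 0.75) and 194 and 235 against 269 and 161 in BCSP. The levels on the 2 sides of the gates did not overlap in Mettl3cko mice either: Cd200 was 17.7 and 44.9 CPM in Mettl3cko pre-BCSP, and Eng was 146 and 150 CPM in Mettl3cko BCSP against 25.2 to 40.0 in Mettl3cko SSC and pre-BCSP.

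Eng in SSC was 25.2 and 37.0 CPM in Mettl3cko against 51.3 and 46.3 in WT (-0.64, SE 0.25, 95% interval -1.23 to -0.05, adjusted p = 0.307). In BCSP it was 146 and 150 against 114 and 144 (0.19, SE 0.22, -0.32 to 0.70). Thy1 held 0 to 26 counts per Mettl3cko input library. Ptprc was at 0 in 5 of the 6 and had 70 counts in pre-BCSP replicate 2, and Tek held 0 to 51. Without members, leukocyte genes summed to 36.2 to 79.2 CPM in the Mettl3cko inputs against 16.8 to 57.1 CPM in WT, and erythroid genes to 12.9 to 52.5 CPM against 0.814 to 5.90 CPM. Endothelial genes without Tek summed to 47.3 to 56.4 CPM in Mettl3cko SSC against 16.1 to 18.2 in WT and to 19.4 to 25.1 against 12.8 to 17.4 in pre-BCSP, without overlap, and to 43.96 to 80.2 against 29.1 to 61.7 in BCSP. Their part in these differences was not tested.

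**Figure D5:**
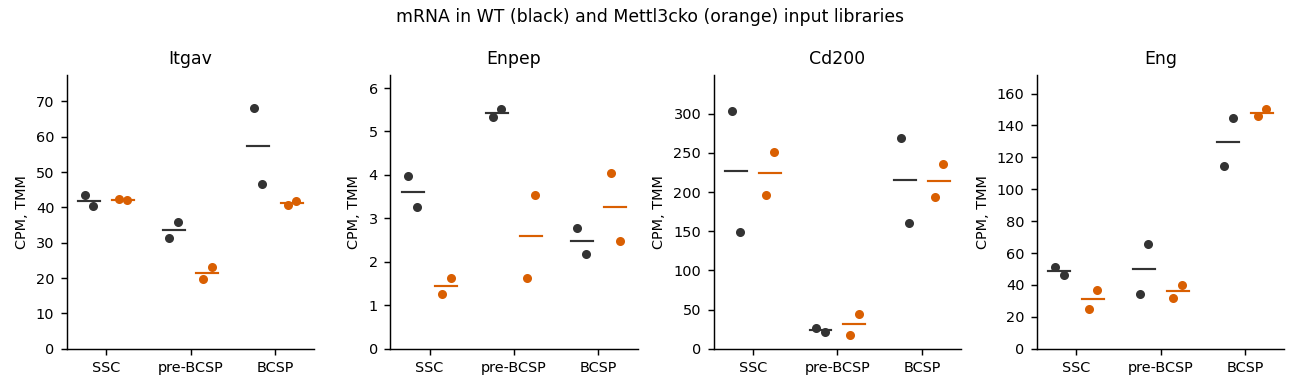
TMM-scaled CPM (linear axes from 0) of 4 members in WT (black) and Mettl3cko (orange) input libraries of SSC, pre-BCSP and BCSP, 2 points per group with a bar at their mean. Eng libraries of Mettl3cko lay below WT in SSC and above WT in BCSP, Cd200 overlapped in every population, and no difference passed an adjusted p below 0.05.

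Itgav was above its input in 5 of 6 Mettl3cko pairs, with fitted log2 fold changes of 1.59 (SE 0.55) in SSC, 1.00 (SE 0.65) in pre-BCSP and 1.21 (SE 0.30) in BCSP, and 1, 0 and 1 members were enriched where 8.41%, 8.04% and 8.7% of genes were. Each of the 2 calls was lost in 3 of the 4 fits that left out 1 library. The ratio in Mettl3cko differed from that in WT by 0.47 (SE 0.62), -0.26 (SE 0.64) and 0.32 (SE 0.41), and no member passed in any population, where 0.0%, 0.0% and 0.0% of genes did in edgeR, 2505, 2087 and 1814 genes had an unadjusted p below 0.05, and DESeq2 called 1755, 983 and 717. The Itgav enrichment is therefore not shown to depend on Mettl3. Eng IP was 15.4 and 0.269 CPM in Mettl3cko SSC, and without the first of these libraries its interaction was -5.85 (adjusted p = 0.000949) in place of -0.99 (SE 1.87). Enpep was counted 0 times in all 6 Mettl3cko IP libraries, against 2 to 170 counts in WT IP of the same populations and 1.26 to 4.04 CPM in the Mettl3cko inputs. Its interaction had an unadjusted p of 0.00675 in pre-BCSP and 0.00457 in BCSP (adjusted p = 0.223 and 0.32), and DESeq2 gave an adjusted p of 0.0148 and 0.00457. Fewer genes had a count in these IP libraries than in WT, and the part of this in the Enpep zeros was not tested. Thy1 (154 counts) and Ptprc (308 counts) were high in 1 Mettl3cko IP library, pre-BCSP replicate 2, and at 0 in the other 5.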

How the data were processed

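The authors deposited 1 table of raw gene counts for 44 SLIM-seq libraries (low-input m6A IP and matched input, full-length cDNA without strand). The submitters' processing notes name fastp 0.20.1, HISAT2 2.2.1, featureCounts 2.0.1 and DESeq2, while the strand setting and gene annotation are not given in the sources used here. Of 46959 entries, 128 that share 2 names were left out (at most 0.39% of a library) and 46831 were used. Positions, lengths and transcripts came from GENCODE vM21 on GRCm38.

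Counts were tested with edgeR 4.0.16 (TMM scaling, filterByExpr, quasi-likelihood F test, Benjamini-Hochberg adjustment over all genes, threshold 0.05), in R 4.3.3 with limma 3.58.1. mRNA comparisons used the 16 WT input libraries, or the 4 inputs of 1 population for Mettl3cko. Each SE was taken as the absolute log2 fold change over sqrt(F). Enrichment in IP was a log2 fold change above 1 at an unadjusted p below 0.05. Printed CPM are TMM-scaled over all 44 libraries. Log2 ratios per pair added a prior count of 2. The study states that sorted cells of a batch were divided between IP and RNA-seq. That same-numbered IP and input libraries share a batch was assumed. The correlation of their deviations was 0.035 to 0.508 (above 0.1 in 7 of 11), against -0.469 to 0.353 between inputs of different WT populations. Alternatives were DESeq2 1.42.0, its size factors in edgeR, no scaling beyond library size, keeping low counts, the replicate block, 1 fit over all libraries and leaving out each library. Scripts were tested on simulated data. The members and gene lists were chosen with earlier results of these data known. Named were the 7 members, the 3 most alike genes of each, and at most 4 genes of a list by mean level. Intervals and floors cover counting error only. Depth was 16480027 to 44046651 counts a library.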

Additional observations from a re-analysis of the deposited data

Results flagged for a closer look

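Eng mRNA in Mettl3cko mice lay below WT in SSC and above WT in BCSP. Both Mettl3cko SSC libraries were below both WT libraries (log2 difference -0.64), and both Mettl3cko BCSP libraries were above both WT libraries (0.19). Neither difference passed an adjusted p below 0.05, and the difference between the 2 populations was not tested. The share of all genes whose libraries separate in this way is not given here.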

How the results depend on the processing

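Of 736 values recomputed under another scaling, filter, tool or design, 694 kept their direction and side of the threshold, as did 1247 of 1344 with 1 library left out. Eng in 6C3 over HEC passed with DESeq2 size factors (1.77, adjusted p = 0.0485), no filter (1.78), DESeq2 (1.77) and the replicate block (1.78), and in 11 of 16 fits without 1 library. Its log2 fold change was 1.75 to 1.81 over all 16 of those fits, and whether it passed depended on which library was left out. The members passing by the CD105 gate were 2 with size factors, no filter or DESeq2 (Itgav joined), and by the CD200 gate 2 with no filter (Tek joined); without 1 library they were 1 to 2 and 1 to 2, and by the 6C3 gate 2 to 4. One fit over all 44 libraries gave Thy1 IP values of 1.47, 1.86 and 1.43 in PCP, THY and BLSP, none called. The cause was not tested.

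Differences near 0 changed sign. Against WT, Itgav in SSC was -0.0016 (library size alone), Cd200 in SSC 0.020 (size factors), 0.00015 (no filter), 0.020 (DESeq2) and 0.067 (replicate block), and Cd200 in BCSP 0.0076 (library size alone), 0.0021 (no filter), 0.037 (replicate block) and 0.0047 (one fit). Cd200 IP with library size alone, no filter and one fit was -0.080, -0.092 and -0.034 in THY and -0.028, -0.071 and -0.019 in BLSP. The Eng interaction in BCSP was -0.25 with a replicate block within genotype, which was chosen after seeing the data.

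Without 1 library, Mettl3cko over WT ranged from -0.025 to 0.074 (Itgav SSC), -0.42 to 0.60 (Cd200 SSC), -0.45 to 0.90 (Cd200 pre-BCSP), -0.87 to 0.10 (Eng pre-BCSP), -0.010 to 0.72 (Enpep BCSP) and -0.33 to 0.41 (Cd200 BCSP). IP over input ranged for Itgav from 0.91 to 1.27 (SSC), 0.98 to 1.27 (pre-BCSP), 0.58 to 1.11 (BCSP), 1.00 to 1.22 (BLSP), and in Mettl3cko 0.83 to 2.08, 0.17 to 1.46 and 0.93 to 1.39; for Cd200 from -0.72 to 0.28 (SSC), -0.50 to 0.23 (BCSP), -0.033 to 0.55 (PCP), -0.075 to 0.11 (THY) and -0.38 to 0.29 (BLSP); and for Enpep from -0.70 to 1.05 (BCSP) and -4.55 to 0.066 (BLSP). Interactions ranged from -0.27 to 0.98 and -1.05 to 0.27 (Itgav SSC, pre-BCSP), -0.10 to 1.60 and -0.86 to 0.57 (Cd200) and -1.56 to 1.05 (Eng BCSP).

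Counts of all genes called moved by over 1.5 times in these comparisons. With no filter and with DESeq2, 398 became 831 and 754 (CD200 gate), 150 became 505 and 428 (SSC over pre-BCSP), 332 became 795 and 720 (PCP over THY), 2 became 444 and 137 (6C3 over HEC), 210 became 948 and 1016 (BCSP over SSC and pre-BCSP), 111 became 400 and 299 (PCP and THY over BLSP), and 0 became 793 and 661, 245 and 158, and 540 and 548 (Mettl3cko over WT in SSC, pre-BCSP and BCSP). The interactions went from 0 to 90, 476 and 129 with no filter, and the ratio over 8 populations from 123 to 866. The replicate block gave 288, 0 and 46 genes in the Mettl3cko comparisons and 7 in 6C3 over HEC; between genotypes the numbers did not pair libraries (correlations -0.057 to 0.048). For IP over input, where the numbers were taken to pair libraries, the block changed no call of a member. One fit lowered the IP counts of 5 WT populations to 1119 (PCP), 1219 (THY), 1032 (BLSP), 1551 (6C3) and 1128 (HEC), moved those of SSC, pre-BCSP and BCSP by less (1426, 1526 and 1222) and raised those of Mettl3cko to 2569, 2276 and 2022.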
